A study of Homo sapiens with 2 samples.

Results

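Origin licensing and firing genes are the genes whose proteins load the replicative helicase onto DNA and then switch it on. The set holds 10 genes, given by name and chosen with earlier results of these data known, and partners without an expression row, such as ORC2, GINS3 and CDC7, are not among them: ORC1, ORC6, CDC6, CDT1 and GMNN for licensing, and DBF4, CDC45, GINS1, GINS2 and GINS4 for firing. Of these, 9 have a row in the expression table, which holds 812 genes in all, and 7 have a row in the table of skipped exons. A549 cells, a line from a human lung adenocarcinoma, received 7.22 nM paclitaxel for 72 h and were compared with A549 cells given DMSO, the solvent. The label of the DMSO sample gives its treatment as None. Paclitaxel binds polymerized tubulin and disturbs the mitotic spindle. RNA was sequenced from 1 library per condition, so there is no spread between replicates, and no difference below has a replicate check or a p-value.

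Replication starts from many origins. The origin recognition complex, of which ORC1 and ORC6 are subunits, binds the origin, and CDC6 and CDT1 then bring the MCM helicase to it. This licensing step takes place before S phase, and geminin, the product of GMNN, blocks CDT1 afterwards so that no origin is licensed again. In S phase the kinase CDC7, bound to its activator DBF4, and cyclin-dependent kinases let CDC45 and the GINS complex join the helicase, which then unwinds DNA. Genes of this pathway are known to be transcribed mainly as cells enter S phase, often through E2F factors.

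The expression table holds 993 transcripts that the authors called different between the libraries, with the level of each in FPKM, that is, fragments scaled to the transcript's length and to the number of mapped fragments. The paclitaxel column carries the mark T, read here as the 1 treated sample. The smallest ratio between the libraries in the table is 1.52 on the log2 scale, so every transcript in it had to differ, and a gene outside it has no value here. The depth of the libraries is unknown, since FPKM values keep no counts. Of 10 red blood cell markers, 3 were in the table, with 188 FPKM for HBA2, 161 FPKM for HBA1 and 108 FPKM for HBB in the paclitaxel library, against 0.0566 and 0.0615 FPKM for HBA2 and HBA1 and a listed 0 for HBB in the DMSO library. The 2 alpha globin genes are near-identical copies, so how reads were divided between them is uncertain. Of 8 epithelial and lung markers only KRT19, a keratin of simple epithelia, was in the table, at 107 FPKM with paclitaxel and 22.9 FPKM with DMSO, so the label of the cells could not be checked further. None of 6 leukocyte markers and none of 6 fibroblast and endothelial markers was in it. The part of the globin RNA in the differences below was not tested.

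All listed transcripts of these genes were lower in paclitaxel-treated cells. A transcript counts as lower where its FPKM with DMSO is at least 2 times that with paclitaxel. Every transcript in the table differs by more than this fold, either up or down, so the count shows direction only. By this rule 10 of 10 listed transcripts, from 9 of 9 listed genes, were lower, in a table where 53.9% of all transcripts and 51.0% of all genes were lower. Over the 9 genes the median level was 2.94 FPKM with paclitaxel and 19.8 FPKM with DMSO. Their median log2 ratio of paclitaxel over DMSO was -2.87, beside -1.72 over all genes of the table and -2.99 over its 414 lower genes. The genes thus lay within the range of the other lower genes, as the histogram of ratios shows. At a fold of 4, 8 of the 10 transcripts were lower, beside 48.3% of the table, where 480 of the 535 lower transcripts stayed lower. In RNA from whole cultures, fewer cells in S phase and less RNA per cell cannot be told apart.

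**Figure D1:**
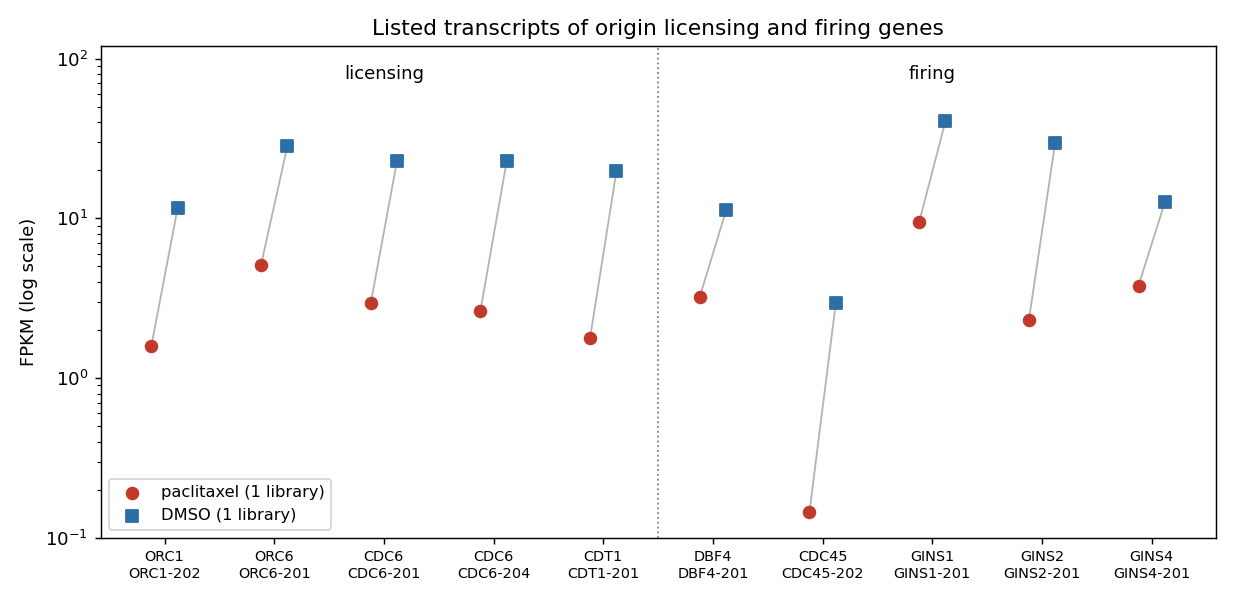
FPKM (y axis, log scale) of the 10 listed transcripts in the paclitaxel library (circles) and in the DMSO library (squares), with 1 value per library and licensing genes left of firing genes. Every circle lies below its square, from 0.145 FPKM with paclitaxel for CDC45 to 40.5 FPKM with DMSO for GINS1.

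The subunits of the origin recognition complex were both lower. ORC1, an ATP-binding subunit (ENST00000371568, chr1:52372829-52404423, minus strand, hg38), had 1.59 FPKM with paclitaxel and 11.7 FPKM with DMSO, a log2 ratio of -2.87. ORC6, the smallest subunit (ENST00000219097, chr16:46689659-46698394, plus strand), had 5.12 FPKM with paclitaxel and 28.3 FPKM with DMSO, a log2 ratio of -2.47. ORC6 RNA stood at 3.22 times that of ORC1 with paclitaxel and at 2.43 times with DMSO. The other subunits, ORC2, ORC3, ORC4 and ORC5, were not in the table, so they have no value here.

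The helicase loaders CDC6 and CDT1 were both lower than with DMSO. CDT1, which carries the MCM ring to the origin (ENST00000301019, chr16:88803789-88809258, plus strand), had 1.78 FPKM with paclitaxel and 19.8 FPKM with DMSO, a log2 ratio of -3.47, or 9.03% of the DMSO level. CDC6, an ATPase that binds the origin complex, is the 1 member with 2 listed transcripts. Its full-length transcript CDC6-201 (ENST00000209728, chr17:40287879-40304657, plus strand) had 2.94 FPKM with paclitaxel and 22.9 FPKM with DMSO, a log2 ratio of -2.96. The short CDC6-204 (ENST00000580824, chr17:40287902-40291555) had 2.64 FPKM with paclitaxel and 22.9 FPKM with DMSO, a log2 ratio of -3.11. CDC6-204 spans only the first 4 exons of the gene, with 696 exon bases against 4564 in CDC6-201, and its annotation is marked as incomplete at the far end. All its bases lie in CDC6-201 as well, so the sharing of reads between the 2 transcripts is uncertain. The FPKM of CDC6-204 over that of CDC6-201 was 0.898 with paclitaxel and 0.997 with DMSO. GMNN, the licensing inhibitor (chr6:24774931-24786099), had no row in either table. Of the 87 transcripts that GENCODE 44 annotates for the 10 genes, 10 were listed, and 8 of these are MANE Select, the form chosen as reference by both main annotations.

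Over the 4 listed licensing genes the summed level was 11.4 FPKM with paclitaxel and 82.6 FPKM with DMSO. Their log2 ratios lay between -3.47 and -2.47, a narrower span than the -4.34 to -1.73 of the 5 firing genes. The median was -2.92 for licensing and -2.10 for firing. With 1 library each, the difference between both steps was not tested.

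Among the firing genes, DBF4 had one of the smallest differences in ratio and CDC45 the largest of all members. DBF4, the activating subunit of the CDC7 kinase (ENST00000265728, chr7:87876493-87909553, plus strand), had 3.23 FPKM with paclitaxel and 11.2 FPKM with DMSO, a log2 ratio of -1.79. The table did not hold CDC7 itself. CDC45, the helicase cofactor (ENST00000404724, chr22:19479938-19520578, plus strand), had 0.145 FPKM with paclitaxel and 2.94 FPKM with DMSO, a log2 ratio of -4.34, which is 4.94% of the DMSO level. These are the lowest levels of any member in both libraries, but they belong to CDC45-202, which is not the reference form of the gene. The reference form had no row, so its level is not known here. With 1 added to each FPKM value the ratio of CDC45 came to -1.78, among the smallest of the set, so its place at the head rests on a low value in the paclitaxel library.

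The GINS complex binds CDC45 and the MCM ring, and its subunits are needed together. GINS1 (ENST00000262460, chr20:25407673-25448563, plus strand) had the highest level of all members in both libraries, 9.46 FPKM with paclitaxel and 40.5 FPKM with DMSO, a log2 ratio of -2.10. GINS2 (ENST00000253462, chr16:85676198-85688954, minus strand) had 2.29 FPKM with paclitaxel and 29.6 FPKM with DMSO, a log2 ratio of -3.69. GINS4 (ENST00000276533, chr8:41529261-41545030, plus strand) had 3.79 FPKM with paclitaxel and 12.6 FPKM with DMSO, a log2 ratio of -1.73, the smallest of the set. The order of the subunits thus differed between the libraries: GINS2 stood at 0.606 times GINS4 with paclitaxel and at 2.35 times GINS4 with DMSO. GINS1 stood at 4.12 times GINS2 with paclitaxel and at 1.37 times GINS2 with DMSO. GINS3 was not in the table. Exons of an antisense RNA (ENSG00000253174) cover 1145 of the 3770 exon bases of GINS4 and those of GPAT4-AS1 cover 114, and the sources used here do not say that reads were assigned by strand, so the GINS4 level may hold antisense reads. The exons of GINS2 and CDC45 each share 7 bases with a gene on the other strand.

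With paclitaxel the members ran in the order GINS1, ORC6, GINS4, DBF4, CDC6, GINS2, CDT1, ORC1 and CDC45. With DMSO the order was GINS1, GINS2, ORC6, CDC6, CDT1, GINS4, ORC1, DBF4 and CDC45. GINS1 led in both libraries. CDC45, listed only by a form that is not its reference form, came last in both. GINS2 had rank 7 of the 10 transcripts with paclitaxel and rank 2 with DMSO, and DBF4 had rank 4 with paclitaxel and rank 9 with DMSO. Without replicates, neighbours in either order cannot be told apart.

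**Figure D2:**
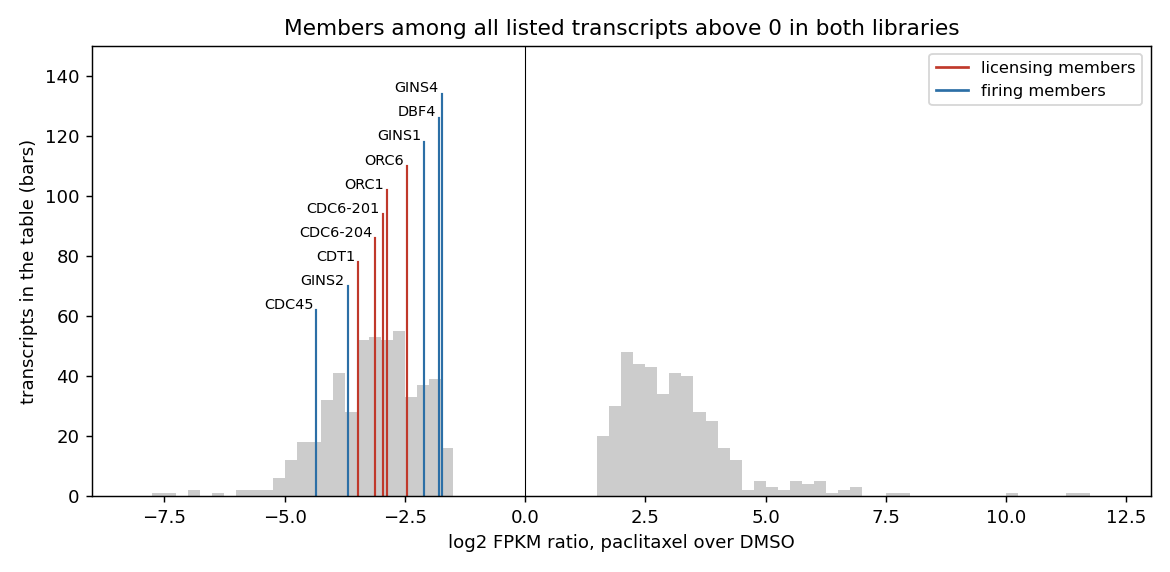
Histogram of the log2 FPKM ratio of paclitaxel over DMSO (x axis) for all listed transcripts above 0 in both libraries (y axis, number of transcripts), with a vertical line for each member transcript, whose height has no meaning. The members lie between -4.34 (CDC45) and -1.73 (GINS4), among the other lower transcripts, and no transcript lies closer to 0 than 1.52.

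Other genes of the pathway were lower as well where they were in the table. Of 51 further genes of origin licensing, firing and their control, chosen with earlier results of these data known, 26 were listed. Of these, 26 were lower and 0 higher, in a table where 51.0% of all genes were lower. Their median log2 ratio was -3.05, beside -2.99 over the 414 lower genes of the table. Counting only genes with at least 1 FPKM in both libraries, 17 of the 26 were listed and lower. The other 25 had no row, among them GINS3, CDC7, MCM3 and PCNA. By the higher of both FPKM values, which was that of the DMSO library, the most abundant were MCM7, MCM4 and MCM6, subunits of the helicase that the members load, then PRIM1, the catalytic subunit of primase, CCNA2, which encodes cyclin A, and MCM5, another helicase subunit. MCM7 had 12.5 FPKM with paclitaxel and 105 FPKM with DMSO, MCM4 had 11.7 FPKM with paclitaxel and 76.1 FPKM with DMSO, and MCM6 had 8.83 FPKM with paclitaxel and 54.3 FPKM with DMSO. PRIM1 had 6.51 FPKM with paclitaxel and 42.4 FPKM with DMSO. MCM7, MCM4, MCM6 and PRIM1 stood above every member in the DMSO library. CCNA2 had 2.56 FPKM with paclitaxel and 40.3 FPKM with DMSO, and MCM5 had 3.91 FPKM with paclitaxel and 39.6 FPKM with DMSO. The ratios nearest to the members' median, a likeness that rests on only 2 libraries, were those of POLE2, a subunit of DNA polymerase epsilon (-2.88), RIF1, which restrains origin firing (-2.89), and DBF4B, a relative of DBF4 that also activates CDC7 (-2.92).

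Set beside the genes that act next in replication, the members had a median ratio between those of both groups. It was -2.87 for the members, against -3.01 for the 5 listed of 6 MCM helicase genes and -2.25 for the 13 listed of 26 genes of the replication fork (polymerases, primase, clamp, clamp loader, single-strand binding, ligation and chromatin assembly). All 5 and all 13 were lower, in a table where 51.0% of all genes were lower. The helicase genes and some fork genes are also among the 51 pathway genes. The summed level of the members was 30.4 FPKM with paclitaxel and 179.5 FPKM with DMSO, that of the helicase genes 41.4 FPKM with paclitaxel and 312 FPKM with DMSO. The differences between these groups of genes were not tested.

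The listed CDC45 transcript, CDC45-202 (ENST00000404724), is not the reference form of the gene. Compared with the MANE Select transcript (ENST00000263201, 19 exons), it lacks exon 4 of 138 bases, and its first and last exons have other outer ends. The same exon 4 is also listed as a skipped exon in the splicing table. The FPKM value above is that of a form without exon 4, because CDC45-202 is the listed transcript. All other exons are shared with the reference form, apart from those outer ends, so the sharing of reads between both forms is uncertain. The MANE Select form of CDC45 had no row in the expression table. Exon 4 lies on the plus strand at chr22:19482690-19482827 (hg38) and is coding throughout, and its loss removes 46 of 566 amino acids and keeps the reading frame. Its sequence is shown because it is the part that tells the measured transcript from the reference one.
CDC45 exon 4: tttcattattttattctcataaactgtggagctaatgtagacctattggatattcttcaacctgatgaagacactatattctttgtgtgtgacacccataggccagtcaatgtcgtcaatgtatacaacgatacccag

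The splicing table lists skipped exons, each given by the exon itself and the exons that flank it. It holds 35827 events in 9939 genes, of which 16 events lie in 7 members. Values per library in this table name no condition, so they were not used, and whether an exon was skipped more or less with paclitaxel is not given here. GINS1 had 5 events, CDC45 had 4 and DBF4 had 3, and ORC1, CDC6, CDT1 and GINS2 had 1 each, beside a median of 3 per gene over the table. ORC6, GINS4 and GMNN had none. The 16 events concern 16 distinct exons, all of them annotated in GENCODE 44 and all framed by the usual AG and GT of introns. Of these, 14 are exons of the MANE Select transcript and 15 are coding throughout.

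The exons were of ordinary length and split between those that keep and those that shift the reading frame. Their lengths ran from 56 to 173 bases with a median of 111.5, beside a median of 121 over the table. A length divisible by 3 was found in 7 of 16, or 43.8% (95% Wilson interval 23.1% to 66.8%, counting error only), and in 41.0% of the 31242 gene and exon pairs of the whole table. For 7 of the 16 events an annotated transcript joins the neighbours directly, 5 of them in GINS1 and 2 in CDC45. For the other 9 the skipping junction is in no transcript of GENCODE 44.

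**Figure D3:**
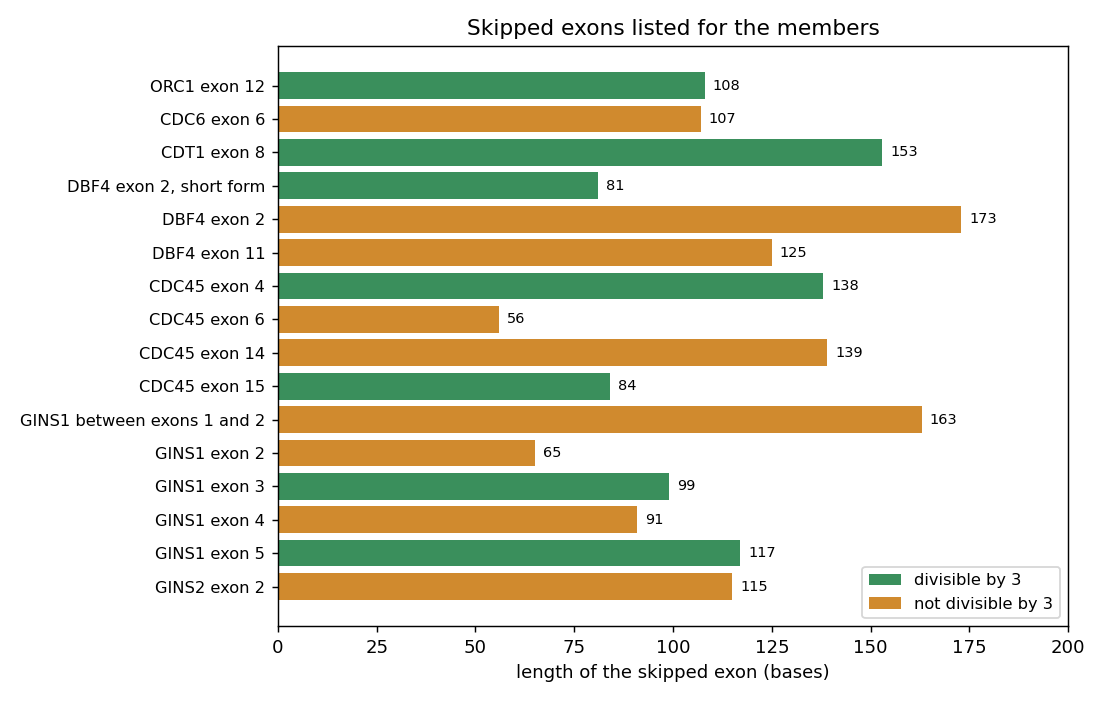
Length in bases (x axis) of each of the 16 skipped exons listed for the members (rows, numbered as in the MANE Select transcript), coloured by whether the length is divisible by 3. Lengths run from 56 bases in CDC45 exon 6 to 173 bases in DBF4 exon 2, and 7 of the 16 are divisible by 3.

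Among the licensing genes, each event falls in 1 inner exon. In ORC1 it is exon 12 of 17 (chr1:52383830-52383937, minus strand), 108 bases, whose loss removes 36 of 861 amino acids in frame. In CDT1 it is exon 8 of 10 (chr16:88807051-88807203, plus strand), 153 bases, whose loss removes 51 of 546 amino acids in frame. In CDC6 it is exon 6 of 12 (chr17:40293950-40294056, plus strand), 107 bases. Its loss shifts the frame, and the first stop codon then comes after 281 codons, where the full protein has 560. These are readings of the annotated sequence, and no protein was measured.

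Among the firing genes, some events shift the frame and some keep it. Where the frame shifts, the codons counted up to the stop include shifted ones that are not in the full protein. In DBF4 both forms of exon 2, with 81 and 173 bases, begin at the same base and end at different donor sites. Both events join exons 1 and 3 in the skipping form. Against the MANE Select form, which holds the 173 bases, this shifts the frame and brings a stop after 17 codons, where the full protein has 674. The length of 81 bases is divisible by 3, so skipping the short form does not change the frame against a transcript that holds it. Skipping exon 11 of DBF4, with 125 bases, brings a stop after 327 codons. In CDC45, exon 6 is the shortest exon of the set at 56 bases, and its loss shifts the frame, with a stop after 167 codons. Exon 15 of CDC45, with 84 bases, removes 28 amino acids in frame, and the event of exon 14 joins exons 13 and 16 and thereby loses both exon 14 and exon 15, with a stop after 417 codons. In GINS2, exon 2 of 5 has 115 bases, and its loss shifts the frame, with a stop after 35 codons. Of the 15 events with a coding exon, 6 kept the frame in the skipping form and 9 shifted it. These counts rest on all coding bases of the MANE Select form that the skipping junction leaves out, so the short form of DBF4 exon 2 counts as shifting. The 41.0% of exons in the whole table with a length divisible by 3 is a share of single exons, so it is no direct counterpart.

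In GINS1, exons 2, 3, 4 and 5 of 7 are each listed as skipped, and all its events have an annotated skipping junction. Skipping exon 2 (65 bases) shifts the frame and brings a stop after 26 codons, and skipping exon 4 (91 bases) does so after 94. The event of exon 3 (99 bases) joins exons 1 and 5. Against the MANE Select form, its skipping form lacks exons 2, 3 and 4, or 85 amino acids in frame. The event of exon 5 (117 bases) joins exons 1 and 6. Its skipping form lacks exons 2, 3, 4 and 5 of the MANE Select form, or 124 amino acids in frame. Both losses thus cover more than the listed exon. The fifth event is an exon of 163 bases between exons 1 and 2 that is in no MANE Select exon. The listed expression row of GINS1 is that of the MANE Select form.

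Sequences of 3 of these exons are shown because they carry the reading of the events. They are the shortest exon, the most upstream coding exon listed as skipped in GINS1, and the DBF4 exon with 2 donor sites. All lie on the plus strand of hg38, at chr22:19494327-19494382, chr20:25413790-25413854 and chr7:87878053-87878225. Capitals in DBF4 exon 2 mark the 92 bases that only the long form holds. They begin with GT, the first bases of the intron when the short form is used.
CDC45 exon 6: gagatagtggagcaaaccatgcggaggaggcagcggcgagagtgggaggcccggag
GINS1 exon 2: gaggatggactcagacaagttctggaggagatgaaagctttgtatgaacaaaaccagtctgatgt
DBF4 exon 2: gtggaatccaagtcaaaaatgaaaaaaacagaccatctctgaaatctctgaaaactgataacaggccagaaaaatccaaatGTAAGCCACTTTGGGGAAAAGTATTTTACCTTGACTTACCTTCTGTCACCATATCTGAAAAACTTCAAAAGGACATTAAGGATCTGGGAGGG

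Promoters of the members were searched for letters known from S-phase and mitotic genes, since the listed members were lower together. RefSeq windows of 300 bases (GRCh38.p14), 250 before and 50 after a gene start, were at hand for 9 members in 12 windows, and none was used for GINS4. The E2F letters were TTTCCCGC, TTTCGCGC, TTTGCCGC or TTTGGCGC on either strand. They were present for 5 of 9 members (55.6%), in CDC6, CDT1, GMNN, GINS1 and GINS2, against 3.99% of the 27305 genes with a window. Of these members, GMNN has no expression row, so its direction is not known. Shares given for genes here cover all genes with a window, and the share among the other lower genes was not computed. CCAAT, the box bound by NF-Y, was present on either strand for 7 of 9 members (77.8%), against 39.7% of genes. TTTGAA or TTCGAA, the cell cycle homology region of mitotic genes, was present on either strand in DBF4 alone, 1 of 9 members (11.1%), against 19.5% of genes. Where only bases before the start are read, 3 of 9 members hold the E2F letters, against 3.40% of genes, since those of CDC6 and GINS1 begin 8 and 6 bases into the transcribed part, and the match in DBF4 drops out, leaving the cell cycle homology region in 0 of 9 members, against 17.2% of genes. With 1 letter less at the T-rich end, 6 of 9 members hold them, against 15.3% of genes, and the added gene is ORC1, whose 2 overlapping matches run into a CCAAT box read on the other strand. These windows were chosen from a reference and not measured in A549 cells, and a match of letters is no evidence of binding.

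**Figure D4:**
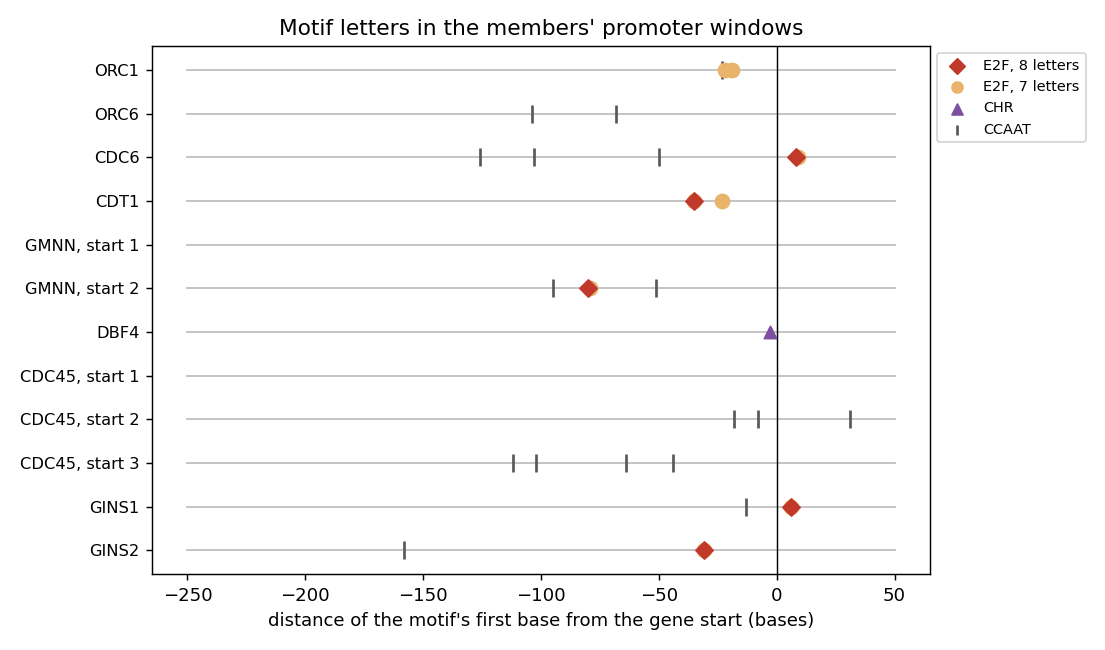
First base of each motif match relative to the gene start (x axis, bases) in the 12 promoter windows of 9 members (rows), with the start at the vertical line. Diamonds are the E2F letters of 8 bases, circles their shorter form of 7 bases, triangles the cell cycle homology region and bars CCAAT. The E2F diamonds lie between -80 in GMNN and 8 in CDC6.

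The stretches from 90 bases before to 30 bases after the start are shown for the 6 members with a match, so that its place can be read. Capitals mark the E2F letters in their long or shorter form. They lie at chr17:40287789-40287908 for CDC6, chr16:88803699-88803818 for CDT1, chr20:25407583-25407702 for GINS1 and chr6:24775323-24775442 for GMNN, all on the plus strand, and at chr16:85688925-85689044 for GINS2 and chr1:52404394-52404513 for ORC1 on the minus strand.
CDC6: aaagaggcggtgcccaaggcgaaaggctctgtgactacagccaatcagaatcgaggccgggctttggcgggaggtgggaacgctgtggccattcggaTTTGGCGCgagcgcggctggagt
CDT1: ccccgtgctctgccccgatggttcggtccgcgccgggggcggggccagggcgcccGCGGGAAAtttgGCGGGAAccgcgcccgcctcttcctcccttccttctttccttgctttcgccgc
GINS1: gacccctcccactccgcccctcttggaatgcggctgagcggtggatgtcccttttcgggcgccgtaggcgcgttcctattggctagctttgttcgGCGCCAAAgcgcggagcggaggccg
GMNN: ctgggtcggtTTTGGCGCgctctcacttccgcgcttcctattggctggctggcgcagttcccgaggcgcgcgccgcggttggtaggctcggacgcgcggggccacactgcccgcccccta
GINS2: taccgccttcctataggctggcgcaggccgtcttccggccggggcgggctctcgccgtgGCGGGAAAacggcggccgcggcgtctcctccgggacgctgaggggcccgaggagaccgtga
ORC1: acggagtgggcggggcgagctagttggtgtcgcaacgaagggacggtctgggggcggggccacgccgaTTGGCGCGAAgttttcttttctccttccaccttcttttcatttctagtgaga
CDT1 holds a second, shorter match after the first, both as the reverse complement. The listed members with the 8-letter form had log2 ratios from -3.69 (GINS2) to -2.10 (GINS1), and those whose windows lack it from -4.34 (CDC45) to -1.79 (DBF4), so the ranges overlap. This split depends on the letters chosen. TTTGGCGG, which differs from a searched form in its last letter, was not searched. It stands in a CDC45 window and, unmarked, in the CDC6 stretch above.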

How the data were processed

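RNA from paclitaxel-treated and DMSO-treated A549 cells, 1 library each, was sequenced as paired reads of 150 bases. RNA was poly(A)-selected and depleted of ribosomal RNA. Mapping by the authors used MapSplice and hg38, and the deposited FPKM values per transcript came from Cufflinks, and the submitters' processing notes also name CASAVA 1.8.2 and TopHat. The deposited expression table holds only transcripts the authors called, together with their log2 fold change, p-value and q-value, which were not used. For splicing the methods give MISO, although the deposited skipped exon table is laid out as MATS writes it. In it 6 columns hold values of single libraries without naming a condition. These were not used, nor were its columns of differences, p-values and false discovery rates. Its other deposited columns, exon positions and form lengths, are not signal values, and no result rests on the form lengths.

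Ratios are log2 of FPKM with paclitaxel over DMSO, with no pseudocount, and a gene has the value of whichever listed transcript reached the highest FPKM. Calls used a fold of 2. With 1 library per condition no test was made. Annotation came from GENCODE 44 on hg38 and promoters from RefSeq, for 9 of 10 members. Older symbols were matched through the reference tables. Ratios and directions were tested on simulated data. Scripts ran in Python 3.11.15 with pandas 2.3.3.

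All members and every listed transcript are named. Of the other pathway genes, those higher, the 6 with the highest FPKM and the 3 with the ratio nearest to the members' median are named, and others only where their absence from the table is stated. Members and lists were chosen with earlier results of these data known. Alternatives were folds of 4, a minimum of 1 FPKM, pseudocounts of 0.1 and 1, summed transcripts, distinct or annotated exons, and other motif windows and letters.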

Additional observations from a re-analysis of the deposited data

How the results depend on the processing

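All 10 ratios of member transcripts were negative with pseudocounts of 0.1 (between -3.63 and -1.71) and of 1 (between -3.22 and -1.51). The members' median log2 ratio of -2.87 came to -2.26 with a pseudocount of 1 and to -2.67 over genes with at least 1 FPKM in both libraries, which leaves out CDC45. It was -2.80 with a pseudocount of 0.1 and -2.87 with listed transcripts summed. Of the 9 lower members, 7 were lower at a fold of 4, where DBF4 and GINS4 drop out, and 8 under the minimum of 1 FPKM. Of the 26 lower pathway genes, 23 were lower at a fold of 4 and 17 under that minimum. Of all 535 lower transcripts listed, 480 were lower at a fold of 4, so passing it does not set these genes apart. The share of all genes under the minimum of 1 FPKM was not computed. The E2F letters were present for 5 members, for 3 before the start only and for 6 in the shorter form. The 16 skipped exons were the same number as distinct or annotated exons. No paired analysis was possible because there is 1 library per condition, and for the same reason none could be left out. Depth is unknown, so counting error of the FPKM values has no interval, and transcripts outside the table have no value.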
